A study of Saccharomyces cerevisiae with 6 samples.

Results

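The histone genes of the budding yeast Saccharomyces cerevisiae were followed across 6 one-colour Affymetrix arrays. Of 10 listed genes, 9 were measured, out of 5449 yeast genes in all. They were found by the gene symbol that the platform annotation gives to each probe set, and for HTA2, which had 2 probe sets, the brighter was kept. The measured genes were HTA1 and HTA2 for H2A, HTB1 and HTB2 for H2B, HHT1 and HHT2 for H3, HHF1 for H4, HTZ1 for the variant H2A.Z and HHO1 for the linker histone H1. The annotation paired no probe set with HHF2, the other H4 gene, which was not analysed here. The probe set of HHF1 and the brighter probe set of HTA2 carry names ending in _s_at, a suffix for probe sets that can bind more than 1 transcript.

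The study set 3 arrays labelled as a gpm1 mutant, that is, a knock-out of GPM1, which encodes the phosphoglycerate mutase of glycolysis, against 3 arrays labelled wild type (WT). By their labels both groups were batch cultures on ethanol with glycerol, and no other allele, agent or time of sampling was named. The labels do not say whether replicates were independent cultures, so each p-value covers only the scatter among these 6 arrays, part or all of which may be technical. Each value below is a probe set signal on a log2 scale.

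Core histones H2A, H2B, H3 and H4 wrap DNA into nucleosomes, and yeast keeps 2 genes for each of them. These lie as divergent pairs that share a promoter region, HTA1 with HTB1, HTA2 with HTB2, HHT1 with HHF1 and HHT2 with HHF2. Their transcription is known to peak at the entry into S phase and to be held down outside it. At all of these loci except HTA2-HTB2 that repression involves the HIR complex, a histone chaperone. Unlike most animal histone mRNAs, those of yeast carry poly(A) tails, which is what 3' labelling of the kind used here primes from. HTZ1 and HHO1 lie outside these divergent pairs, each at a locus of its own.

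The arrays limit what can be compared. GPM1 was at 12.51, 12.48 and 11.82 on the arrays labelled gpm1, against 5.16, 5.12 and 5.17 on those labelled WT. This runs against the labels, so groups are named here only by label, and no direction below is that of a genotype. Where WT stands alone below, it means the arrays labelled WT, not wild-type cells. All 9 histone genes lay at 9.46 or above on every array, well over 6.09, the 95th percentile of probe sets whose gene ID is not in the S. cerevisiae gene table. In principal components of all genes, the arrays labelled gpm1 stood at 33.3, 20.1 and -7.29 on the first axis, against -15.9, -14.6 and -15.7 for those labelled WT. Labelled gpm1 replicates 1 and 2 therefore stood apart from the other 4 arrays.

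None of the 9 histone genes passed an adjusted p of 0.05 between the labelled groups (limma, 0 higher and 0 lower, with 0 also at an unadjusted p under 0.05). Over all genes 44 passed, or 0.807%, and 1223, or 22.4%, had an unadjusted p under 0.05. The histone differences, labelled gpm1 minus labelled WT, ran from -0.55 for HTA1 to 0.31 for HTB1 with a median of -0.06, where the median of all genes was 0.02. The adjusted p-values lay between 0.326 and 0.997. Exact two-sided permutation tests of the 6 values gave p from 0.1, the smallest that 3 against 3 arrays allow, to 1. What the histone genes showed instead was a wide spread among the arrays labelled gpm1. Their SD had a median of 0.462 over the 9 genes, a value that 17.9% of all genes reached, and it was above the all-gene median of 0.248 for 8 of them. Among the arrays labelled WT the median SD was 0.040 for the histone genes and 0.048 for all genes.

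**Figure D1:**
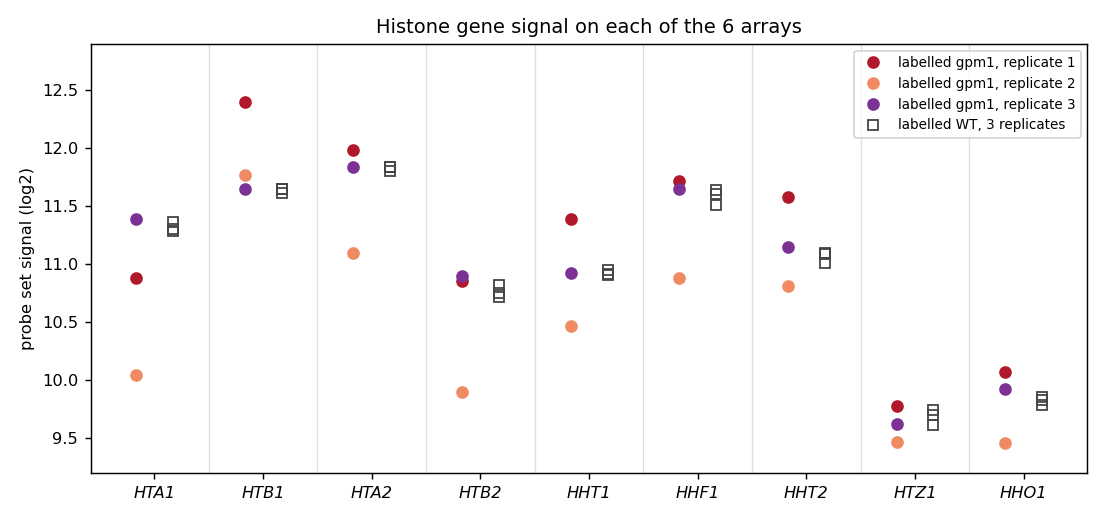
Probe set signal (log2) of the 9 measured histone genes, with each array labelled gpm1 as a coloured point on the left of its column and the 3 arrays labelled WT as open squares on the right. The squares lie close together, while labelled gpm1 replicate 2 is the lowest array for every gene except HTB1 and labelled gpm1 replicate 1 ranges from below the squares for HTA1 to far above them for HTB1.

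HTA1 and HTB1, which encode H2A and H2B and share a locus, differed from WT in opposite directions on labelled gpm1 replicates 1 and 2. HTA1 was at 10.88, 10.04 and 11.39 on the arrays labelled gpm1, against 11.29, 11.37 and 11.31 on those labelled WT. Replicates 1 and 2 were below every array labelled WT, by 1.36-fold and 2.43-fold against their mean, and replicate 3 was above them all, so the groups overlapped. Its mean was 10.77 ± 0.68 in the arrays labelled gpm1 and 11.32 ± 0.04 in those labelled WT (SD, n = 3 each). The log2 difference was -0.55 (SE 0.32, 95% interval -1.33 to 0.23, limma adjusted p = 0.326).

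HTB1 was at 12.40, 11.77 and 11.65 on the arrays labelled gpm1, against 11.61, 11.65 and 11.65 on those labelled WT. Replicate 1 was 1.70-fold above the WT mean, replicate 2 was 0.14 above it on the log2 scale, and replicate 3 cleared the highest array labelled WT by only 0.0035. HTB1 was thus the 1 gene of 9 (11.1%) whose groups did not overlap, where 34.6% of all genes had groups that did not overlap. Its log2 difference was 0.31 (SE 0.20, 95% interval -0.18 to 0.79, limma adjusted p = 0.367).

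HTA1 depended on which arrays entered the fit. With labelled gpm1 replicate 3 left out, HTA1 passed at -0.86 (SE 0.25, limma adjusted p = 0.0417), the 1 histone gene of 9 that did. In that fit 41.1% of all genes passed in either direction, and 19.5% of all genes passed as lower. HTB1 stood there at 0.45 (adjusted p = 0.110). Without replicate 1 the difference of HTB1 was 0.077, and without replicate 2 that of HTA1 was -0.18.

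HTA2 and HTB2, the other H2A and H2B genes, were below WT on labelled gpm1 replicate 2 alone. HTA2 was at 11.99, 11.10 and 11.84 on the arrays labelled gpm1, against 11.84, 11.84 and 11.81 on those labelled WT, which put replicate 2 lower by 1.65-fold. Its second probe set, whose name lacks the _s_at suffix, was at 11.14, 9.95 and 10.77 in the arrays labelled gpm1, against 10.75, 10.93 and 10.78 in those labelled WT. Both probe sets thus had replicate 1 as the highest and replicate 2 as the lowest of the 6 arrays, with log2 differences of -0.18 and -0.20 (limma adjusted p = 0.628 and 0.683). HTB2 was at 10.86, 9.90 and 10.90 in the arrays labelled gpm1, against 10.75, 10.82 and 10.71 in those labelled WT. Replicate 2 was 1.81-fold under the WT mean, and the others were slightly above every array labelled WT. The log2 difference of HTB2 was -0.21 (SE 0.27, 95% interval -0.86 to 0.45, adjusted p = 0.638). Without replicate 2 the differences of HTA2 and HTB2 were 0.087 and 0.12, with the opposite sign.

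HHT1 and HHT2 encode the same H3 protein from separate loci, and both spread to either side of WT. HHT1 was at 11.39, 10.47 and 10.92 on the arrays labelled gpm1, against 10.90, 10.95 and 10.91 on those labelled WT. Replicate 1 was 1.38-fold above the WT mean and replicate 2 was 1.37-fold below it, so the mean difference was near 0, at 0.0023 (SE 0.23, 95% interval -0.54 to 0.55, adjusted p = 0.997). HHT2 was at 11.58, 10.81 and 11.15 on the arrays labelled gpm1, against 11.01, 11.09 and 11.10 on those labelled WT. Replicate 1 was 1.43-fold above the WT mean, replicate 2 was 1.19-fold below it and replicate 3 was just over the highest array labelled WT. Its log2 difference was 0.11 (SE 0.19, 95% interval -0.36 to 0.58, adjusted p = 0.724). Without replicate 1 the differences were -0.23 for HHT1 and -0.086 for HHT2, and without replicate 2 they were 0.23 and 0.30.

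HHF1, an H4 gene, was closer in its array pattern to HTA2 and HTB2 (Pearson's r of 0.99 with each over the 6 arrays) than to its locus partner HHT1 (0.85). It was at 11.72, 10.88 and 11.65 on the arrays labelled gpm1, against 11.60, 11.64 and 11.51 on those labelled WT. Replicates 1 and 3 lay just above the WT arrays, and replicate 2 was 1.63-fold under their mean. The log2 difference was -0.17 (SE 0.23, 95% interval -0.72 to 0.38, adjusted p = 0.654), and 0.097 without replicate 2. The annotation names only HHF1 for this probe set. H4 mRNA from HHF2 can add to its signal if the 2 genes share the probed sequence, which was not checked because probe sequences were not used here.

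The genes outside the divergent pairs had the narrowest spread among the arrays labelled gpm1. HTZ1 encodes H2A.Z, which replaces H2A next to promoters. It stood at 9.78, 9.47 and 9.62 on the arrays labelled gpm1, against 9.70, 9.74 and 9.61 on those labelled WT. Its SD of 0.155 among the arrays labelled gpm1, against 0.065 among those labelled WT, was the smallest of the 9 in the arrays labelled gpm1. Its log2 difference was -0.06 (SE 0.11, 95% interval -0.33 to 0.20, adjusted p = 0.731). HHO1 encodes the linker histone that binds DNA between nucleosomes. It was at 10.07, 9.46 and 9.92 on the arrays labelled gpm1, against 9.78, 9.86 and 9.83 on those labelled WT, with replicate 2 below them all and the other 2 above. The log2 difference of HHO1 was -0.0073 (SE 0.17, 95% interval -0.41 to 0.40, adjusted p = 0.984). Without replicate 2 it was 0.17, and that of HTZ1 was 0.014. With each array centred on its median they were 0.067 and 0.012, so neither sign held under that scaling. CSE4, for the H3 variant of centromeres, is not among the 9. It stood at 8.57, 8.01 and 7.59 on the arrays labelled gpm1, against 7.89, 7.88 and 7.91 on those labelled WT, a log2 difference of 0.16 (limma adjusted p = 0.683) that was -0.094 without replicate 1.

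**Figure D2:**
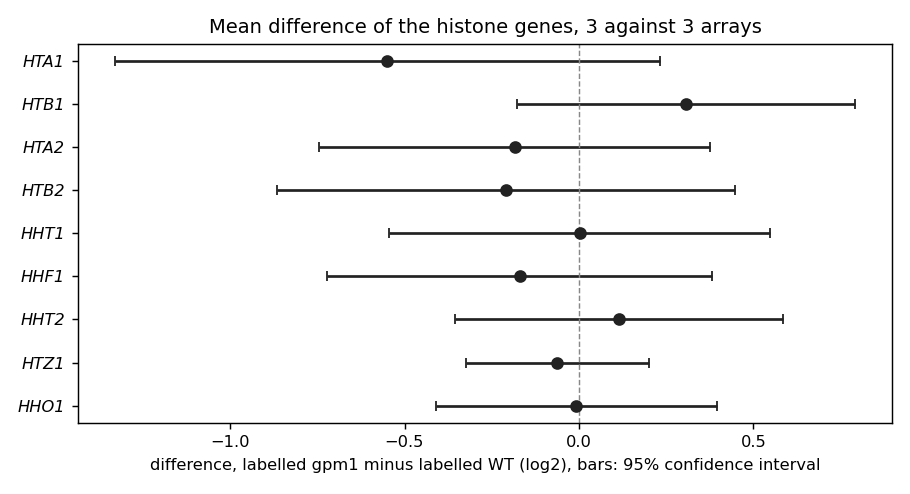
Mean log2 difference of each histone gene, labelled gpm1 minus labelled WT, with its 95% confidence interval from limma over 3 against 3 arrays. All 9 intervals include 0, and HTA1 has the widest, from -1.33 to 0.23.

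Taken array by array, the histone genes were mostly above WT in labelled gpm1 replicate 1 and mostly below it in replicate 2. In replicate 1, 8 of the 9 genes were over the highest array labelled WT and HTA1 was under the lowest. At a limit of 0.5 on the log2 scale against the WT mean (1.41-fold), 2 of 9 were higher, HTB1 and HHT2, and 0 were lower, where 20.8% of all genes were higher and 17.8% lower. In replicate 2, 8 of 9 were under the lowest array labelled WT and HTB1 was over the highest. Past the same limit 4 of 9 were lower, HTA1, HTA2, HTB2 and HHF1, and 0 were higher, against 13.7% and 12.1% of all genes. Replicate 3 had 0 of 9 past the limit in either direction, where 0.532% of all genes were higher and 3.3% lower. The median of the 9 genes was 0.16, -0.46 and 0.07 in replicates 1, 2 and 3, and that of all genes was 0.05, -0.01 and 0.02. The share of all genes above the highest or below the lowest array labelled WT was not counted, so the counts of that kind have no background. It can be large, since the quartiles of all genes were -0.32 and 0.41 in replicate 1 and -0.27 and 0.26 in replicate 2. The all-gene median SD among the arrays labelled WT was only 0.048. A single array has no replicate check, so all these counts describe the 3 arrays only.

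**Figure D3:**
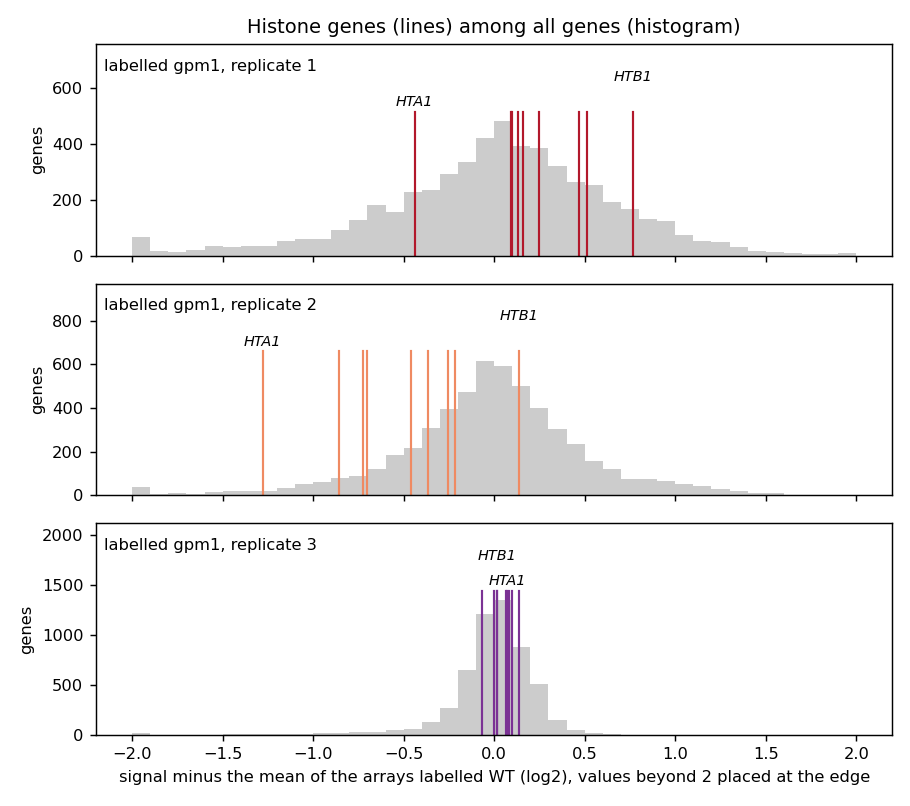
Signal minus the mean of the arrays labelled WT (log2) for all 5449 genes as a histogram and for the 9 histone genes as vertical lines, 1 panel for each array labelled gpm1. In replicate 2 every line but that of HTB1 lies left of 0, with HTA1 at -1.28, and in replicate 3 all lines lie between -0.07 and 0.13.

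That order of the arrays, replicate 1 above replicate 3 above replicate 2, was not the order of the first principal component, which ran from replicate 1 through replicate 2 to replicate 3. The mean of the 7 measured core genes was 11.54, 10.71 and 11.36 in the arrays labelled gpm1, against 11.29, 11.34 and 11.29 in those labelled WT. Control transcripts added to each hybridization had means of 9.02, 8.60 and 8.94 on the arrays labelled gpm1 and 8.74, 8.78 and 8.49 on those labelled WT, so the order among the arrays labelled gpm1 was the same as that of the core genes. Among the arrays labelled WT the order was the same as well, replicate 2 above 1 above 3. The core means of labelled WT replicates 1 and 3 differed little, at 11.287 and 11.286, while these controls stood at 8.74 and 8.49. Poly-A control transcripts, which pass through labelling with the sample, stood at 7.14, 6.67 and 6.21 on the arrays labelled gpm1 and at 5.92, 6.22 and 6.22 on those labelled WT. The signal of the 3' end of ACT1 minus that of its 5' end, a measure of RNA integrity, came to 0.65, 0.47 and 0.46 on the arrays labelled gpm1 and 0.58, 0.49 and 0.46 on those labelled WT. The part of these controls in the histone values was not tested. Since the cultures were bulk samples, a different share of cells in S phase and a different amount of histone mRNA per cell cannot be told apart in any of these values.

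The next question was whether genes of 1 locus, and copies of 1 histone gene, kept their ratio. The difference between 2 genes was taken within each array and then compared between groups. Of 8 planned pairs, 6 could be measured, since the other two need HHF2. HTA1 minus HTB1 came to -1.52, -1.73 and -0.26 on the arrays labelled gpm1, against -0.32, -0.28 and -0.34 on those labelled WT. In replicates 1 and 2 the ratio was thus shifted by -1.21 and -1.42 from the WT mean, and in replicate 3 by 0.06. The divergent neighbours HTA2 and HTB2, in contrast, were shifted against each other by 0.06, 0.13 and -0.12. HHT1 minus HHF1 was shifted by 0.34, 0.24 and -0.07.

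Between copies, HTA1 minus HTA2 was shifted by -0.60, -0.55 and 0.06, and HTB1 minus HTB2 by 0.67, 0.997 and -0.12. HHT1 minus HHT2, between the 2 H3 copies, was shifted by -0.05, -0.20 and -0.08, and this was the 1 pair of 6 whose groups did not overlap. No pair passed: the exact two-sided permutation p was 0.4 for the 4 pairs HTA1-HTB1, HHT1-HHF1, HTA1-HTA2 and HTB1-HTB2, 0.8 for HTA2-HTB2 and 0.1 for HHT1-HHT2, and the lowest value adjusted over the 6 pairs was 0.48. With 3 against 3 arrays no p could have gone below 0.1. The mean change of the ratio was -0.86 for HTA1-HTB1 (-1.31 without labelled gpm1 replicate 3) and 0.52 for HTB1-HTB2 (0.83 without it). For HTA1-HTA2 it was -0.36, and -0.35 with the second HTA2 probe set. For HTA2-HTB2 it was 0.02, and -0.03 without labelled gpm1 replicate 2.

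**Figure D4:**
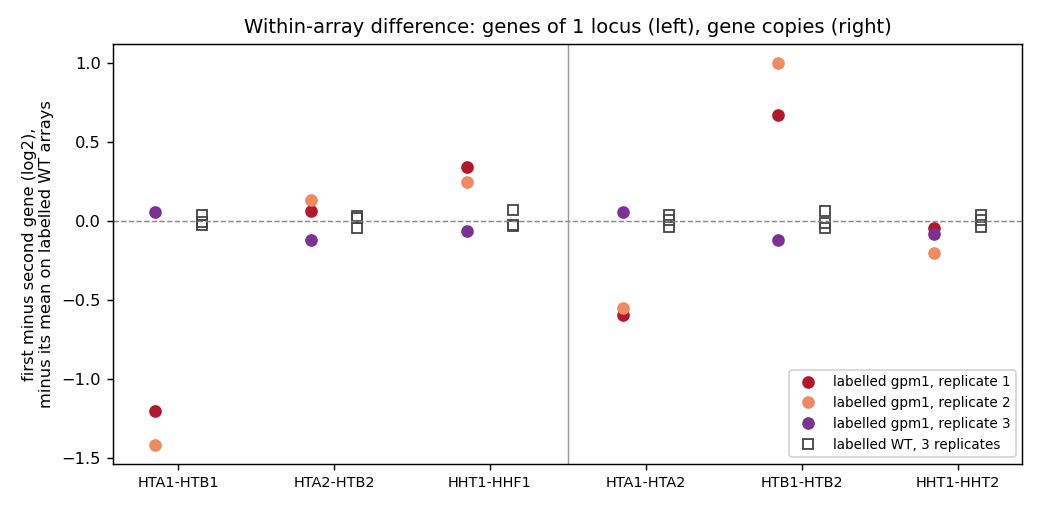
Within-array log2 difference between 2 histone genes, set to 0 at the mean of the arrays labelled WT, for the 3 measured divergent loci on the left and the 3 measured pairs of copies on the right. Labelled gpm1 replicates 1 and 2 lie at -1.21 and -1.42 for HTA1-HTB1, while for HTA2-HTB2 the arrays labelled gpm1 lie between -0.12 and 0.13.

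Across the 6 arrays 7 of the 9 histone genes varied together, and HTA1 and HTB1 each did so with only some of them. Pearson's r over the 36 gene pairs had a median of 0.83. Among the 7 genes without HTA1 and HTB1 it was at least 0.66, and its highest value was 0.99, for HTB2 with HHF1. HTA1 correlated with HTB2 at 0.91 but with HHT2 at 0.30, and HTB1 correlated with HHT2 at 0.80 but with HTB2 at 0.093. HTA1 with HTB1 gave the lowest value, -0.32, so leaving these genes out raises the minimum by itself. The r of ordinary gene pairs was not computed, so these values have no background. The first principal component of all genes held 73.8% of the variance. These are descriptions over 6 points that share each array's labelling and hybridization, and they rest mostly on labelled gpm1 replicates 1 and 2.

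Genes with other functions had array patterns as close to the core histones. Of 5440 other genes, 106 had r of at least 0.9 with the mean of the 7 core genes over the 6 arrays, and 79 had r of -0.9 or lower. The 5 most alike had r between 0.989 and 0.994. They were MPC2, for a subunit of the mitochondrial pyruvate carrier, RKM5, for a methyltransferase that acts on a ribosomal protein, AIM7, TOS6, for a cell wall protein, and SPC98, for a part of the microtubule-nucleating complex of the spindle pole body. MPC2 was at 11.63, 11.03 and 11.44 on the arrays labelled gpm1, against 11.41, 11.45 and 11.40 on those labelled WT. TOS6 had the widest spread of the 5, at 11.01, 9.49 and 10.53 in the arrays labelled gpm1, against 10.47, 10.45 and 10.43 in those labelled WT.

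The genes next to the histone loci were added after the data had been seen. Of 12 measured neighbours of the 10 listed genes, 0 passed (limma, lowest adjusted p = 0.092), and 3 of 12, ADK1, CRF1 and NAN1, had an unadjusted p under 0.05, where 22.4% of all genes did. Beside the HTA1-HTB1 locus, neither neighbour had the pattern of the gene it adjoins. ADK1, for adenylate kinase, follows HTA1 and differed from the WT mean by 0.27, 0.40 and 0.11 on the 3 arrays labelled gpm1. CRF1, on the other side of HTB1, was at 5.78, 5.64 and 5.88 on the arrays labelled gpm1, against 6.31, 6.22 and 6.37 on those labelled WT, so its values on the arrays labelled gpm1 lay under the background percentile of 6.09. The array order of most histone genes, replicate 1 above 3 above 2, was also that of both neighbours of HTZ1, PLB3 and HRD1, and of FLR1 beside HHF1. The other measured neighbours had other orders, and the share of all genes with this order was not counted. FLR1 was at 7.10, 6.94 and 6.99 on the arrays labelled gpm1, against 7.01, 7.05 and 7.07 on those labelled WT. PLB3, for a phospholipase B, was at 8.54, 7.86 and 8.41 on the arrays labelled gpm1, against 8.54, 8.46 and 8.38 on those labelled WT (log2 difference -0.19, limma adjusted p = 0.527). HRD1, for a ubiquitin ligase of the endoplasmic reticulum, was at 8.37, 7.97 and 8.28 on the arrays labelled gpm1, against 8.27, 8.27 and 8.16 on those labelled WT.

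Genes that control, assemble, modify and remove histones, and genes of the cell cycle, were examined as 9 lists. With all 6 arrays 0 of their 99 measured genes passed in either direction (limma). The counts at an unadjusted p under 0.05 were 0 for transcription control, 2 for chaperones, 3 for SWR1, 0 for transferases, 1 for deacetylases, 4 for decay and turnover, 1 for G1 to S, 0 for G2 and M and 2 for M to G1. Over all genes that share was 22.4%, near the 3 of 12 for SWR1 and the 2 of 9 for M to G1, below the 4 of 8 for decay and turnover and above the share in the other 6 lists. In the list of histone gene transcription control, 12 of 12 genes did not pass (median difference 0.10). SWI6, for the cofactor shared by the G1 to S factors SBF and MBF, had the smallest p, at 8.10, 7.89 and 7.86 on the arrays labelled gpm1 against 7.68, 7.80 and 7.61 on those labelled WT (log2 difference 0.25, limma adjusted p = 0.227). Within the HIR complex, HIR3 was at 6.06, 6.66 and 7.56 on the arrays labelled gpm1, against 7.58, 7.59 and 7.58 on those labelled WT, so replicate 2 was lower by 1.90-fold and replicate 1 lay under the background percentile of 6.09, where no fold is given. HPC2, another HIR subunit, was at 8.41, 7.99 and 7.61, against 7.65, 7.66 and 7.66. Both were named after their values were seen, and neither passed (adjusted p = 0.229 and 0.319). Without labelled gpm1 replicate 3, HIR3 passed at -1.23, which includes that value under background, and HPC2 at 0.54. SPT10 of the same list also passed there, as lower. Its values of 5.82 and 5.88 on labelled gpm1 replicates 1 and 2 both lay under the background percentile.

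Histone chaperones and assembly factors had 0 of 12 past the threshold, with a median of 0.22. VPS75, for a chaperone that works with the acetyltransferase Rtt109, had the smallest p, at 0.43 (SE 0.13, adjusted p = 0.196). The SWR1 complex exchanges H2A for H2A.Z, and 0 of its 12 genes passed (median 0.22), with RVB1, an ATPase subunit gene, at 0.36 (SE 0.11, adjusted p = 0.196). Among 10 histone acetyltransferase and methyltransferase genes 0 passed (median 0.12). RTT109, for the enzyme that acetylates newly made H3, stood at -0.49 (SE 0.24, adjusted p = 0.253). Among 10 deacetylase genes 0 passed (median 0.04), with HST2 at -0.53 (SE 0.16, adjusted p = 0.196). Of 8 genes for histone mRNA decay and histone turnover 0 passed (median 0.20). UBC5, for a ubiquitin-conjugating enzyme, stood at -0.72 (SE 0.17, adjusted p = 0.162), with all arrays labelled gpm1 under all those labelled WT. RTT109, HST2 and UBC5 were named for the smallest p of their lists, and each ran against the sign of its list median.

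Without labelled gpm1 replicate 3, 41.1% of all genes passed, and 19.5% passed as lower. Transcription control then had 3 of 12 (1 higher, 2 lower), chaperones 6 of 12 (5 higher, 1 lower) and SWR1 7 of 12 (6 higher, 1 lower). Transferases had 6 of 10 (3 higher, 3 lower), deacetylases 3 of 10 (2 higher, 1 lower) and decay and turnover 6 of 8 (4 higher, 2 lower). The genes named above passed there at 0.54 for VPS75, 0.44 for RVB1, -0.76 for RTT109, -0.70 for HST2 and -0.87 for UBC5, and SWI6 did not (adjusted p = 0.065). They had been picked by p in the fit of all 6 arrays, which shares these arrays, so this is no separate support. With any other single array left out, 0 genes of any list passed.

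Histone transcription is timed with DNA replication, so lists of cell cycle genes were set beside it. The array order of the core histone mean was replicate 1 above 3 above 2, which HTA1, HTB1 and HTB2 did not have themselves. It was also that of the medians of the G1 to S, transcription control and deacetylase lists, and the other lists had other orders. The deacetylase medians lay close together, at 0.059, 0.0062 and 0.032 in labelled gpm1 replicates 1, 2 and 3. Those of transcription control were 0.26, -0.04 and 0.07. The G1 to S genes had medians of 0.62, -0.13 and 0.20 in labelled gpm1 replicates 1, 2 and 3, against 0.16, -0.70 and 0.07 for the core histone genes. In replicate 1, 13 of 18 G1 to S genes were above the WT mean, in replicate 2 it was 5, and in replicate 3 it was 17. The share of all genes above the WT mean was not counted, so these counts have no background. The medians of all genes were 0.05, -0.01 and 0.02 in replicates 1, 2 and 3. With all 6 arrays 0 of 18 passed (median difference 0.24), and PRI1, for a DNA primase subunit, had the smallest p at 0.59 (SE 0.16, adjusted p = 0.187). Its members had unlike array patterns. POL30, for the sliding clamp PCNA, was at 11.05, 9.52 and 10.12 on the arrays labelled gpm1, against 9.78, 9.84 and 9.78 on those labelled WT. RNR1, for the large subunit of ribonucleotide reductase, was at 8.397, 7.75 and 9.15 on the arrays labelled gpm1, against 8.87, 8.92 and 8.88 on those labelled WT, and like HTA1 it was low in replicates 1 and 2. POL30 and RNR1 were named after their values were seen, and neither passed (adjusted p = 0.469 and 0.405).

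Genes of later stages had other array orders. The 9 measured G2 and M genes had medians of -0.29, 0.10 and 0.22, and 0 passed, with the mitotic cyclin gene CLB2 at 0.23 (adjusted p = 0.257). The 9 M to G1 genes had medians of -0.72, -0.29 and 0.17, and 0 passed, with CDC6, for a factor that loads the replicative helicase, at 0.39 (SE 0.11, adjusted p = 0.191). The median difference of that list was -0.29, so CDC6 ran against it. Without labelled gpm1 replicate 3, where 41.1% of all genes passed, 2 of 18 G1 to S genes did, PRI1 at 0.76 and RNR1 at -0.82. So did 2 of 9 G2 and M genes, both as lower. Of the M to G1 genes 6 of 9 passed there, 5 as lower and only 1 as higher, CDC6 at 0.46.

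**Figure D5:**
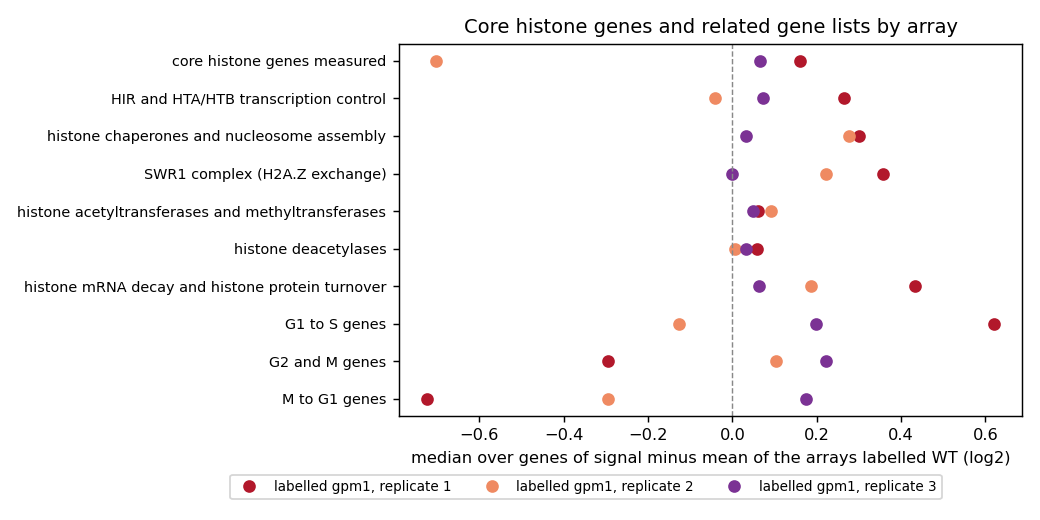
Median over the genes of a list of the signal minus the mean of the arrays labelled WT (log2), with 1 point for each array labelled gpm1, for the 7 core histone genes and the 9 related lists. The core histone genes lie at 0.16, -0.70 and 0.07 in replicates 1, 2 and 3, and the G1 to S genes at 0.62, -0.13 and 0.20.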

How the data were processed

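The authors summarised each one-colour Affymetrix array with PLIER, per the submitters' processing notes, and deposited 1 value per probe set. The deposited values were read as log2 from their range, 4.88 to 13.1. The sources used here give no version, settings, offset, scaling or log base, so every fold rests on base 2. Of 10928 probe sets, 5498 had a gene ID in the yeast R64 gene table, used for names and neighbours only. Each of 5449 genes was represented by its brightest probe set, on average across arrays.

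Labelled gpm1 was compared with labelled WT by limma 3.58.1 (lmFit, eBayes, default prior) in R 4.3.3, two-sided, at 0.05 after adjusting p by Benjamini-Hochberg across all 5449 genes. Single values had exact permutation tests. The members and lists were chosen with earlier results of these data known. Genes named were the members, GPM1, CSE4, called list members or else the 1 with the smallest p of each list, and the 5 most correlated with the core mean. HIR3, HPC2, SPT10, POL30 and RNR1 were named outside this rule, after their values were seen, as were the neighbours. The limit of 0.5 for single arrays, the neighbours and the second HTA2 probe set were chosen after the data were seen. Deviations of same-numbered arrays correlated at 0.051, 0.024 and -0.13, so no pairing by number was seen. The wide spread among the arrays labelled gpm1 could hide a pairing, so this check cannot exclude one. Plots used matplotlib 3.10.9.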

Additional observations from a re-analysis of the deposited data

Results flagged for a closer look

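The poly-A control transcripts lie outside the gene comparisons. They averaged 7.14 on labelled gpm1 replicate 1 and 6.67 on replicate 2, above the highest array labelled WT at 6.22, while replicate 3 was at 6.21. Their part in the histone values was not tested.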

How the results depend on the processing

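Precision is limited by 3 arrays per group, and all histone signals were above background. The count of genes past the threshold was 1009 with array weights, whose estimation stopped before convergence, and ran from 11 to 2240 when 1 array was left out. The count of histone genes was 1, HTA1, with array weights (-0.85, adjusted p = 0.0295) and ran from 0 to 1 with 1 array left out. HTA1 and HTB1 kept their sign in all 15 alternatives. With 1 array left out, differences that changed sign ranged from -0.36 to 0.087 for HTA2, -0.38 to 0.12 for HTB2, -0.23 to 0.23 for HHT1, -0.086 to 0.30 for HHT2, -0.32 to 0.097 for HHF1, -0.14 to 0.014 for HTZ1, -0.13 to 0.17 for HHO1, -0.094 to 0.40 for CSE4 and -0.029 to 0.098 for HTA2-HTB2. Array weights turned HHT1 to -0.18 and HHT2 to -0.030. Centring arrays turned HTZ1 to 0.012 and HHO1 to 0.067. No pairing by replicate number was seen, though the check could not exclude one. With the replicate number as a block 31 genes passed, against 44 without it, and 0 histone genes did.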
